A study of Arabidopsis thaliana with 12 samples.

Results

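Sugars act in plants both as fuel and as signals, and the genes described here are 6 of the 14 whose sugar response the study went on to measure by qPCR. They are *PRKR* (AT3G49160, a gene of the pyruvate kinase family), *URH1* (AT2G36310, a nucleoside hydrolase), *MRS2.11* (AT5G22830, a magnesium transporter also called *MGT10*), AT3G57540 (a remorin) and the genes of unknown function AT2G22080 and AT3G25400. Each was taken as 1 of the 22810 probe sets of the Affymetrix ATH1 array, a set of short DNA probes against a transcript. The platform's annotation named the probe sets of *PRKR*, AT2G22080 and AT3G25400, and the other 3 were found through their ratios of log2 values to Xyl, which matched the supplementary gene list of the study within 4.70e-06 while the next best probe set differed by at least 0.00193. The study had put these genes on its list because their level on these same arrays differed between a sugar and Xyl. Their sugar differences are therefore a description, and no p is given for them. Where calls at a threshold are counted for these genes, the counts show how the fit changes with the replicate number and are no evidence of a response.

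The 12 arrays hold RNA of an *A. thaliana* suspension culture, a habituated line derived from roots that grows in the dark without hormones and that had been adapted to 87 mM Xyl as its carbon source. Culture 7 d old was divided between flasks, which received 1 mM Fru, Glc or Suc, or 1 mM Xyl as the control, for 1 h, with 3 arrays for each sugar, and all 4 groups stayed in the medium in which they had grown. All arrays come from this 1 line, so that nothing here is a measurement in a seedling or an organ. The deposited values are log2 RMA values (background-corrected, quantile-normalized, summarised over the probes of a set), and a difference of 1 on this scale is a doubling.

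Pyruvate kinase catalyses the last step of glycolysis, the transfer of a phosphate from phosphoenolpyruvate to ADP. Nucleoside hydrolases split nucleosides such as uridine into the base and ribose, which lets the cell reuse both. The MRS2 proteins carry magnesium across membranes, and the product of *MRS2.11* does so in the chloroplast. Remorins are plant proteins of the plasma membrane, where they gather in small domains.

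The array medians lay between 4.70 and 4.84. The 4 arrays of replicate 3 stood apart on the first principal component (67.7% of the variance), at 64.2 to 67.8 against −43.7 to −22.8 for the other 8. All 18 differences of the 6 genes to Xyl kept their direction without replicate 3. RNA of a whole culture was measured, in which fewer cells of a kind and less RNA per cell cannot be told apart. With 3 arrays against 3, an exact test cannot give a p under 0.1, and the errors below measure the spread between these arrays only.

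**Figure D1:**
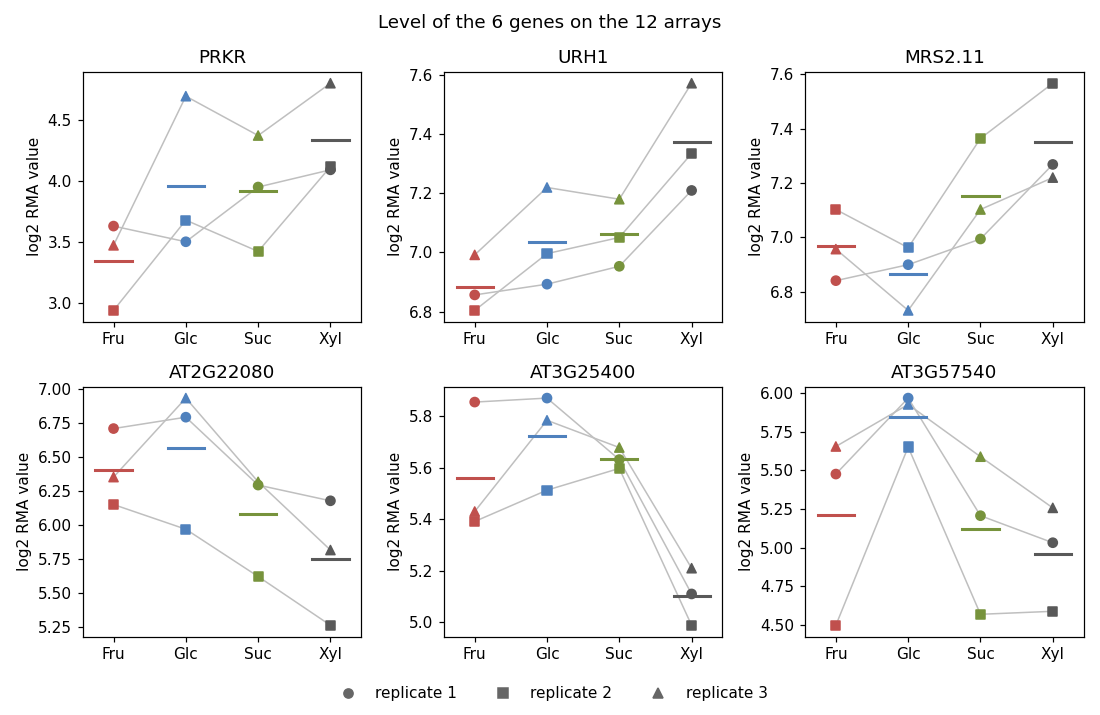
The log2 RMA value (y axis) of each gene on the 12 arrays by sugar (x axis), with 1 marker shape for each replicate number, a grey line joining arrays of the same number and a bar at the mean of 3 arrays. For *PRKR*, *URH1* and *MRS2.11* the Xyl array is the highest of all 3 replicates, for AT2G22080 and AT3G25400 it is the lowest of all 3, and for AT3G57540 the Glc array is the highest of all 3. Each panel has its own y axis.

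*PRKR* was lower with each of the 3 sugars than with Xyl, and most with Fru. Its log2 RMA value was 4.09, 4.12 and 4.80 with Xyl and 3.63, 2.94 and 3.47 with Fru in replicates 1, 2 and 3. It was 3.50, 3.68 and 4.70 with Glc and 3.95, 3.42 and 4.37 with Suc. All Fru arrays lay below all Xyl arrays, whereas the Glc and the Suc arrays overlapped with those of Xyl through the arrays of replicate 3, which were high with every sugar but Fru. The means were 3.35 ± 0.36 with Fru, 3.96 ± 0.65 with Glc, 3.91 ± 0.48 with Suc and 4.34 ± 0.40 with Xyl (SD, n = 3). Against Xyl this is 1.99-fold lower with Fru (log2 −0.99, 95% interval −1.80 to −0.18). With Glc the difference was −0.38 (−1.19 to 0.43) and with Suc −0.42 (−1.23 to 0.39), and single arrays weighed on both. Leaving out 1 array gave −0.75 to −0.15 with Glc (without the Glc and without the Xyl array of replicate 3) and −0.65 to −0.18 with Suc (without the Suc array of replicate 3 and without that of replicate 2). A fit with the replicate number as a block compares arrays of the same number. Its 95% intervals were −1.40 to −0.59 with Fru, −0.78 to 0.02 with Glc and −0.83 to −0.02 with Suc. Within replicates, the Fru array was below its Xyl array by 0.46, 1.18 and 1.33, so that the first replicate had less than the others. *PRKR* is a dim probe set, with a mean over all arrays of 3.89 against a median of 4.81 for the means of all probe sets.

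*URH1* was lower with all 3 sugars. Its differences to Xyl varied least between the replicates with Glc and most with Fru (−0.35, −0.53 and −0.58). The log2 RMA value was 7.21, 7.34 and 7.57 with Xyl and 6.86, 6.80 and 6.99 with Fru in replicates 1, 2 and 3. It was 6.89, 7.00 and 7.22 with Glc and 6.95, 7.05 and 7.18 with Suc. The Fru and the Suc arrays lay below all Xyl arrays, and the highest Glc array (7.22) just reached the lowest Xyl array (7.21). The means were 6.88 ± 0.10 with Fru, 7.04 ± 0.17 with Glc, 7.06 ± 0.11 with Suc and 7.37 ± 0.18 with Xyl (SD, n = 3). Against Xyl the log2 difference was −0.49 with Fru (95% interval −0.77 to −0.20, a level of 0.713 times that with Xyl), −0.34 with Glc (−0.62 to −0.05, 0.792 times) and −0.31 with Suc (−0.60 to −0.03, 0.806 times). With the replicate block the intervals were −0.68 to −0.30 with Fru, −0.53 to −0.15 with Glc and −0.50 to −0.12 with Suc. Glc took off 0.32, 0.34 and 0.35 in the 3 replicates, an SD of 0.02 beside 0.18 between the Xyl arrays themselves. In every replicate Fru gave the lowest of the 4 values.

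*MRS2.11* was lower with Glc and Fru and lay between these and Xyl with Suc. The log2 RMA value was 7.27, 7.57 and 7.22 with Xyl and 6.90, 6.96 and 6.73 with Glc in replicates 1, 2 and 3. It was 6.84, 7.10 and 6.96 with Fru and 6.99, 7.36 and 7.10 with Suc. The Glc and the Fru arrays lay below all Xyl arrays, while the Suc array of replicate 2 (7.36) was above the Xyl arrays of replicates 1 and 3. The means were 6.97 ± 0.13 with Fru, 6.86 ± 0.12 with Glc, 7.15 ± 0.19 with Suc and 7.35 ± 0.19 with Xyl (SD, n = 3). Against Xyl the log2 difference was −0.49 with Glc (95% interval −0.79 to −0.18, a level of 0.713 times that with Xyl), −0.39 with Fru (−0.69 to −0.08, 0.766 times) and −0.20 with Suc (−0.50 to 0.11, 0.872 times). With the replicate block the intervals were −0.69 to −0.28 with Glc, −0.59 to −0.18 with Fru and −0.40 to 0.01 with Suc. In every replicate the Suc array lay above those of Fru and Glc and below that of Xyl. The Suc difference ran from −0.30 to −0.09 on leaving out 1 array (the Suc and the Xyl array of replicate 2). Of 6 genes that mark green tissue, only *RCA*, the activase of Rubisco, had a named probe set. *RCA* lay between 6.18 and 7.69 on the 12 arrays and differed from Xyl by −0.10, −0.20 and −0.21 with Fru, Glc and Suc, and its part in the values of *MRS2.11* was not tested.

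AT2G22080, a gene of unknown function, was higher with each sugar, in the order Glc, Fru, Suc by the means. Fru was above Glc in replicate 2, and Fru minus Glc was −0.16 in the mean (95% interval −0.87 to 0.55). Its log2 RMA value was 6.18, 5.26 and 5.82 with Xyl and 6.79, 5.97 and 6.93 with Glc in replicates 1, 2 and 3. It was 6.71, 6.15 and 6.35 with Fru and 6.29, 5.62 and 6.32 with Suc. The groups overlapped for all 3 sugars, since the Xyl array of replicate 1 (6.18) was above the Glc, Fru and Suc arrays of replicate 2. Within each replicate, however, the Xyl array was the lowest and the Suc array the next. The means were 6.40 ± 0.28 with Fru, 6.56 ± 0.52 with Glc, 6.08 ± 0.39 with Suc and 5.75 ± 0.46 with Xyl (SD, n = 3). The level was 1.75-fold higher with Glc (log2 0.81, 95% interval 0.10 to 1.52), 1.57-fold with Fru (0.65, −0.06 to 1.36) and 1.25-fold with Suc (0.32, −0.39 to 1.03). When the replicate number was a block in the fit, which compares arrays of the same number, these intervals were 0.53 to 1.09, 0.37 to 0.93 and 0.05 to 0.60. Without the Xyl array of replicate 2 the Fru difference was 0.41 and the Suc difference 0.08, and without the Suc array of replicate 2 the latter was 0.55.

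AT3G25400, also of unknown function, was higher with all 3 sugars by similar amounts, and none of its sugar arrays overlapped with those of Xyl. The log2 RMA value was 5.11, 4.99 and 5.21 with Xyl and 5.87, 5.51 and 5.78 with Glc in replicates 1, 2 and 3. It was 5.63, 5.60 and 5.68 with Suc and 5.85, 5.39 and 5.43 with Fru. The 3 Suc arrays were the closest together of any sugar (5.64 ± 0.04, SD, n = 3), and with Fru the array of replicate 1 was far above the other 2. The means were 5.56 ± 0.26 with Fru, 5.72 ± 0.19 with Glc and 5.10 ± 0.11 with Xyl (SD, n = 3). The level was 1.54-fold higher with Glc (log2 0.62, 95% interval 0.30 to 0.94), 1.45-fold with Suc (0.53, 0.21 to 0.85) and 1.37-fold with Fru (0.46, 0.14 to 0.77). With the replicate block the intervals were 0.38 to 0.86 with Glc, 0.29 to 0.77 with Suc and 0.22 to 0.69 with Fru. The Fru difference was 0.74 in replicate 1 and 0.40 and 0.22 in the others.

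On these arrays AT3G57540, the remorin, was highest with Glc in every replicate, whereas by qPCR the study reported a response to Fru alone. The log2 RMA value was 5.03, 4.59 and 5.26 with Xyl and 5.97, 5.65 and 5.93 with Glc in replicates 1, 2 and 3. It was 5.48, 4.50 and 5.66 with Fru and 5.21, 4.57 and 5.59 with Suc. All Glc arrays lay above all Xyl arrays and all Suc arrays, whereas the highest Fru array (5.66) reached the lowest Glc array (5.65). The means were 5.21 ± 0.62 with Fru, 5.85 ± 0.17 with Glc, 5.12 ± 0.52 with Suc and 4.96 ± 0.34 with Xyl (SD, n = 3). Against Xyl, Glc gave 1.85-fold (log2 0.89, 95% interval 0.14 to 1.64), Fru 1.19-fold (0.25, −0.50 to 1.00) and Suc 1.12-fold (0.16, −0.59 to 0.91). The replicates differed in what Fru and Suc did. In replicate 2 the Fru and Suc arrays were 0.09 and 0.02 below Xyl, while in replicate 1 they were 0.44 and 0.18 above it and in replicate 3 0.40 and 0.33. The Fru difference moved to 0.61 without the Fru array of replicate 2 and to 0.03 without that of replicate 3.

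Set side by side, *PRKR*, *URH1* and *MRS2.11* were lower and AT2G22080, AT3G25400 and AT3G57540 higher with each of the 3 sugars in the mean. All 6 genes differed from Xyl in the same direction in all 3 replicates with Glc, and 5 did so with Fru and with Suc, AT3G57540 being the exception. Over all 22746 probe sets without the control probe sets, 31.4% did so with Glc, 32.4% with Fru and 37.9% with Suc. The arrays of sugar and Xyl did not overlap for 4 genes with Fru, 3 with Glc and 2 with Suc, against 6.77%, 6.26% and 6.21% of all probe sets. The 3 contrasts share the Xyl arrays and chose the genes, so that these counts are no support for a response. By qPCR, the study reported responses to Glc and Fru and none to Suc for *PRKR*, *URH1* and AT2G22080. It reported responses to Fru and Suc and none to Glc for AT3G25400, and to Fru alone for AT3G57540. The qPCR had mannitol as a control, and its values were not used here.

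**Figure D2:**
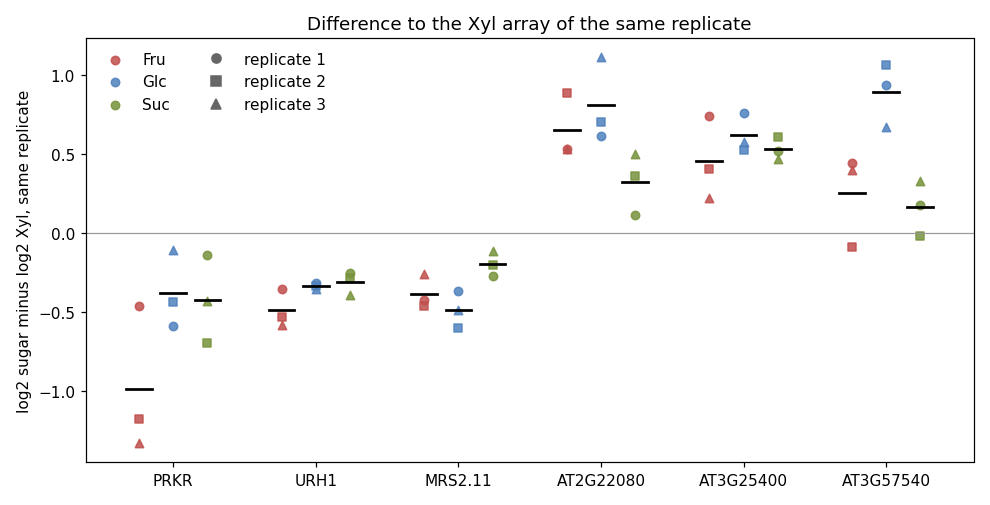
The log2 value with a sugar minus the log2 value of the Xyl array of the same replicate (y axis) for each gene (x axis), coloured by sugar, with 1 marker shape for each replicate and a black bar at the mean of 3. All points of *PRKR*, *URH1* and *MRS2.11* lie below 0 and all of AT2G22080 and AT3G25400 above it, while AT3G57540 has a Fru and a Suc point just below 0, both of replicate 2.

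The genes had been chosen at an unadjusted threshold of 0.002 on these arrays, so that the counts at this threshold repeat the choice and only their change between fits is of use. The limma fit over the 4 groups called 0 of the 6 genes with Fru, 1 (AT3G25400) with Glc and 0 with Suc, where it called 0.0835%, 0.044% and 0.0659% of all probe sets. With the replicate number as a block it called 5 with Fru (all but AT3G57540), 4 with Glc (*MRS2.11*, AT2G22080, AT3G25400 and AT3G57540) and 1 with Suc (AT3G25400), and 1.09%, 1.24% and 1.06% of all probe sets. The study's list may itself rest on a fit with the number as a random block, which would make the next counts the choice itself. Such a fit gave 5 with Fru, 5 with Glc (*URH1* in addition) and 1 with Suc, and 0.55%, 0.55% and 0.576% of all probe sets. With the block the standard error was 0.13 in place of 0.32 for AT2G22080 and 0.14 in place of 0.34 for AT3G57540, but 0.11 in place of 0.14 for AT3G25400. Near the threshold with the random block lay *URH1*, which passed with Glc at a difference of −0.34 and did not pass with Suc at −0.31. None of the 6 genes had a Benjamini-Hochberg adjusted p under 0.05 in limma in any of these 3 fits and comparisons with Xyl, where 0.0176% of all probe sets did with Suc and the block and 0 did otherwise.

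The sugars were also set against one another. Their arrays had chosen the genes, so that these values are differences with intervals, and the counts of calls beside them are no test of the genes. AT3G57540 was 0.73 lower on the log2 scale with Suc than with Glc (−0.73, 95% interval −1.48 to 0.02) and 0.64 lower with Fru than with Glc (−0.64, −1.39 to 0.11). With the block the intervals were −1.04 to −0.42 and −0.95 to −0.33, and no other of the 18 values passed the threshold of 0.002 in that fit, which called 0.637% of all probe sets between Suc and Glc and 0.44% between Fru and Glc. Without the block no gene of the 6 was called in any of these comparisons (0.0572%, 0.022% and, between Suc and Fru, 0.0044% of all probe sets). With the random block the Suc value passed and the Fru value did not (0.264% and 0.281% of all probe sets, and 0.246% between Suc and Fru). Between Suc and Fru none of the 6 passed with either block (0.585% of all probe sets with the block). After Benjamini-Hochberg adjustment none of the 6 had a p under 0.05 between sugars, and the only such value among all probe sets was 1 between Suc and Glc with the block (0.0044%).

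*PRKR* was lower with Fru than with Glc by −0.61 (−1.42 to 0.19, with the block −1.02 to −0.21), but this came from replicates 2 and 3 (−0.74 and −1.23), since in replicate 1 it was 0.13 higher. Without replicate 3 the difference was −0.31. Against Suc, the Fru value of *PRKR* was lower in each replicate, with Suc minus Fru at 0.32, 0.48 and 0.90. AT2G22080 was lower with Suc than with Glc by −0.50, −0.35 and −0.61 in the 3 replicates (mean −0.49, −1.20 to 0.22, with the block −0.76 to −0.21). *MRS2.11* was higher with Suc than with Glc (0.29, −0.02 to 0.60, with the block 0.09 to 0.49), with no overlap of the arrays. Arrays of Suc and Glc did not overlap for *MRS2.11* and AT3G57540 and for 5.03% of all probe sets, and no gene of the 6 had arrays apart between Fru and Glc (4.81%) or between Suc and Fru (5.74%). The direction was the same in all 3 replicates for 3 genes between Fru and Glc, 3 between Suc and Glc and 4 between Suc and Fru, against 26.7%, 29.8% and 36.7% of all probe sets.

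For *URH1* and AT3G25400 the sugars were closest. Suc and Glc differed by 0.03 for *URH1*, with an interval of −0.26 to 0.31, and by −0.09 for AT3G25400, with an interval of −0.41 to 0.23. These intervals are as wide as the differences of both genes to Xyl, and equal levels are not shown by them. By the means, the order from low to high was Fru, Glc, Suc, Xyl for *URH1* and Xyl, Fru, Suc, Glc for AT3G25400. Neighbouring groups among Fru, Glc and Suc overlapped, whereas Xyl did not overlap with its neighbour. For *URH1*, Fru was nevertheless below Glc in each replicate, by 0.04, 0.19 and 0.23 (mean −0.15, SD 0.10). Leaving Xyl aside, the other neighbouring sugars in these orders differed by less than the SD of their within-replicate differences.

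**Figure D3:**
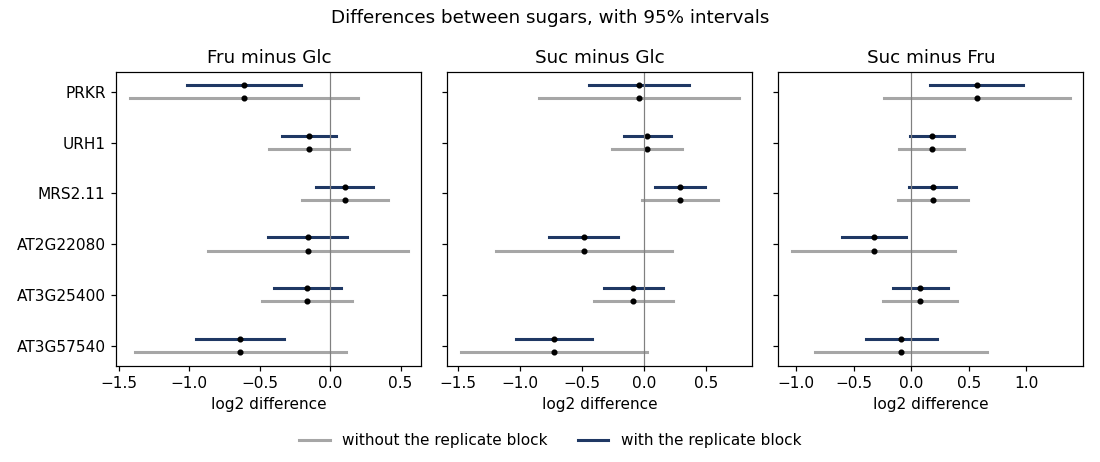
The log2 difference between 2 sugars (x axis) for each gene (y axis), with dots at the difference and lines for the 95% interval, grey without the replicate block and dark blue with it. AT3G57540 lies at −0.64 and −0.73 in the 2 comparisons with Glc, and without the block every grey line of the 18 reaches 0.

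The genes were not chosen for how far they differ between the replicate numbers. That difference is, however, part of the spread within a sugar, which an unpaired test of the sugars uses. The methods describe cells divided between flasks and do not say what a number marks. A limma F test of the replicate number, with sugar in the fit, called 5 of the 6 genes at an adjusted p under 0.05, as it did 54.2% of all probe sets. The choice by sugar p and this test share the rest variance of a gene. Neither the count nor the adjusted p of a single gene is therefore independent of the choice. The residual SD ran from 0.057 for *URH1* to 0.303 for *PRKR*, against a median of 0.137 over all probe sets. Averaged over the 4 sugars, AT2G22080 was at 6.49, 5.75 and 6.35 in replicates 1, 2 and 3 (adjusted p = 0.00014) and AT3G57540 at 5.42, 4.83 and 5.61 (adjusted p = 0.00027). For AT2G22080, replicate 2 was below replicate 1 by 0.74, close to the 0.81 that Glc added.

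*PRKR* was at 3.79, 3.54 and 4.34 (adjusted p = 0.0024), *URH1* at 6.98, 7.05 and 7.24 (adjusted p = 0.023) and *MRS2.11* at 7.00, 7.25 and 7.00 (adjusted p = 0.027), all in limma. AT3G25400, at 5.62, 5.37 and 5.53, was not called (adjusted p = 0.11). Replicate 2 was thus the lowest for 4 genes and the highest for *MRS2.11*. Between replicates 1 and 2 alone, 3 genes passed in limma, AT2G22080 (adjusted p = 7.1e-05), AT3G57540 (adjusted p = 0.0014) and *MRS2.11* (adjusted p = 0.034), with 33.2% of all probe sets, so that the calls of *PRKR* and *URH1* rested on replicate 3. *URH1* was also lost without any 1 of 4 arrays (adjusted p up to 0.093) and *MRS2.11* without any 1 of 6 (adjusted p up to 0.12).

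Of the spread of AT3G25400 over the 12 arrays, 74.9% lay between the sugars and 13.3% between the replicate numbers. For *URH1* the shares were 69.1% and 27.3%, and for *MRS2.11* 66.9% and 26.2%. For AT2G22080 (44.8% and 47.8%), AT3G57540 (46.1% and 44.8%) and *PRKR* (44.5% and 39.3%) the shares were of similar size. The sugar share is over 4 groups and the replicate share over 3, so that similar shares are not similar effects. The medians of all probe sets were 14.2% and 54.0%, but the sugar share is what the genes were chosen by.

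**Figure D4:**
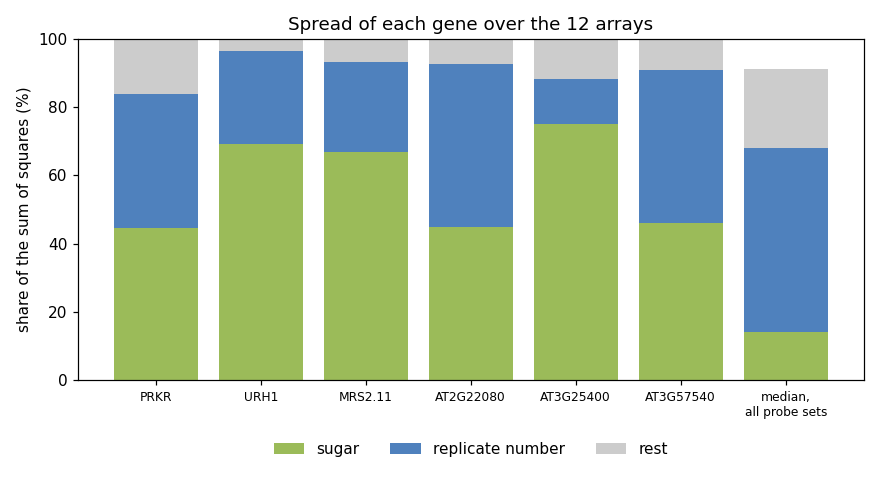
The share of the sum of squares over the 12 arrays (y axis, %) that lay between the sugars, between the replicate numbers and in the rest, for each gene and as the median over all probe sets (x axis). The replicate share runs from 13.3% for AT3G25400 to 47.8% for AT2G22080. The last bar stacks 3 separate medians and therefore does not add up to 100%.

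Among the other genes of these families that had a named probe set, none passed the threshold. The rest may be on the array without a name in the annotation, as *URH1*, *MRS2.11* and AT3G57540 were. Of 13 pyruvate kinase genes listed beside *PRKR*, 6 had a named probe set, and none passed the threshold of 0.002 with any sugar, with or without the block. The median of their differences to Xyl was −0.03 for Glc and 0.01 for Fru and for Suc. That of all probe sets was 0.01 for Glc and 0.00 for the other sugars. The highest mean over the 3 sugars was 0.07 (AT5G63680) and the lowest −0.09 (AT5G56350). With every sugar both lay between −0.14 and 0.15 of their level with Xyl. A difference under the threshold does not show that a level stayed the same.

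Of 14 other remorins, 11 had a named probe set and none passed, also with the block. The median of their differences to Xyl was −0.09 for Fru, 0.02 for Glc and 0.03 for Suc. AT1G67590 had the highest mean over the sugars (0.24, from 0.34 with Fru, 0.33 with Glc and 0.05 with Suc). *REM1.2* had the lowest (−0.17, from −0.32, −0.26 and 0.05). The Glc differences of the 11 ran from −0.26 to 0.33, beside 0.89 for AT3G57540. Only *REM1.2*, *REM1.3* and AT5G23750 had an array above 4.81, the median of the means of all probe sets. Their Glc differences were −0.26, 0.08 and −0.02. The other remorins were dim, and whether they were expressed was not tested. As AT3G57540 was itself chosen for its sugar difference, the range does not show that it stands apart in its family.

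For the other families few genes had a named probe set. Of 16 genes of nucleoside breakdown and salvage, 1 had a named probe set, *UPP*, which encodes a uracil phosphoribosyltransferase. It differed from Xyl by −0.11 with Fru, −0.11 with Glc and 0.04 with Suc. Of 9 other MRS2 magnesium transporters and of 3 xylem markers, 0 had a named probe set. Of 12 genes of deoxynucleotide metabolism 2 had a named probe set, *ITPA* (0.08, 0.18 and 0.15) and *DCD* (0.08, 0.16 and 0.08). *EXPA7*, the 1 of 4 root markers with a named probe set, lay between 2.75 and 3.25 on the 12 arrays, and *AUR1*, an Aurora kinase and the 1 of 4 markers of dividing cells, between 4.26 and 7.82. None of these genes passed the threshold with any sugar.

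The list of genes measured by qPCR holds 8 others, 7 of them with a named probe set. These 7 too were chosen on these arrays, whereas the remaining gene, *BT2*, had been measured by qPCR before them. In the mean over the sugars 6 of the 7 were lower than with Xyl and 1 was higher, *MGD2*, a galactolipid synthase gene, whereas the 6 genes described here split 3 and 3. Without the block, *bZIP63*, a transcription factor, passed the threshold with all 3 sugars (−0.70, −0.81 and −0.72 with Fru, Glc and Suc) and *TPS9*, a trehalose phosphate synthase gene, with Fru (−0.84) and Suc (−0.65). With the block, 3 of the 7 passed as lower and 1 as higher with Fru, 5 as lower and 1 as higher with Glc, and 5 as lower with Suc. As these genes were chosen in the same way, their counts too repeat the choice.

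The probe sets most like each gene were found by Pearson's r over the 12 arrays, after the mean of each replicate number had been taken off, among 13566 probe sets with 1 named gene. The arrays of a sugar share their treatment, so r mostly follows the sugar means, and it is given as a description. For *PRKR* they were AT4G29750 (r = 0.98), AT4G30690 (0.97) and AT1G72740 (0.96), all with Fru as the lowest sugar, at −0.47, −0.65 and −0.24 against Xyl. For *URH1* they were AT1G15740 (0.96), *Cpn60beta3* (0.96) and AT3G17710 (0.94), and for *MRS2.11* AT2G38240 (0.96), *DEG15* (0.93) and AT1G36980 (0.93). The last 3 were each lowest with Glc.

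For AT2G22080 the most alike were AT5G43150 (r = 0.96), *OCT1* (0.95) and *TGA3* (0.95), and AT5G43150 was 0.80, 1.05 and 0.54 above Xyl with Fru, Glc and Suc. For AT3G25400 they were AT4G23620 (0.96), AT5G36960 (0.93) and AT1G53530 (0.91). For AT3G57540 they were AT4G23840 (0.93), AT3G49510 (0.92) and AT1G01840 (0.92), each highest with Glc, at 0.35, 0.25 and 0.33 above Xyl. Among the 6 genes themselves, over the same 12 arrays, *PRKR* and *URH1* were the most alike (r = 0.86), and *MRS2.11* and AT2G22080 were the most opposed (r = −0.91). For *PRKR* and AT3G57540 r was −0.11.

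Dividing a log2 value by that with Xyl, rather than subtracting, orders the 18 values otherwise. The same difference gives a ratio farther from equality for a dimmer probe set. By both, *PRKR* with Fru was farthest from Xyl (ratio 0.774, difference −0.99), followed by AT3G57540 with Glc (1.18 and 0.89) and AT2G22080 with Glc (1.14 and 0.81). *PRKR* with Suc was 7th by the ratio (0.902) and 10th by the difference (−0.42), and *PRKR* with Glc 8th (0.909) and 12th (−0.38). *URH1* with Fru went the other way, from 11th (0.934) to 7th (−0.49). The values given for the 6 genes are therefore differences throughout.

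The genes also differed in length by direction. The annotated genes of *URH1*, *PRKR* and *MRS2.11* are 2780, 3112 and 3397 bp long in the assembly TAIR10.1, above the median of 2112 bp for 13416 genes with a named probe set. Those of AT3G25400, AT2G22080 and AT3G57540 are 1422, 1811 and 1834 bp long, below it. With 3 genes on each side this is a description of the 6.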

How the data were processed

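The 6 genes and the gene lists were chosen with earlier results of these data known. The authors deposited log2 RMA values for each array, in 2 tables that hold the same values. The processing notes of the submitters name Affymetrix Expression Console, RMA and limma, with versions not given in the sources used here. A deposited table of the authors' own comparisons, with fold changes and p-values, was not used, nor were the qPCR values. No value column was without a sample (0).

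The comparisons of sugars with Xyl and among themselves were made on the log2 values in limma 3.58.1 (R 4.3.3), in 1 fit over the 4 groups without a block (8 residual degrees of freedom), over 22746 probe sets after 64 control probe sets were left out. Intervals are the 95% intervals of this fit unless the block is named. The methods name Student's t-test and p under 0.002 without the form of the test. The replicate numbers of the labels were taken to pair the arrays, as the methods describe flasks filled from evenly split cells. Same-numbered arrays deviated together in all 18 pairs (r from 0.772 to 0.938). Arrays of different numbers were not compared in this way, so r alone does not show the pairing. The methods do not state that a number marks 1 culture. A fit with the number as a block had 6 residual degrees of freedom. The fits were tested on simulated data.

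The platform's annotation gave 1 gene for 13513 probe sets and several for 503, and the tolerance for a match of ratios was 1e-05. Named were the 6 genes, the 3 named probe sets most like each, the genes of each list past the threshold and its highest and lowest mean over the sugars. Of 10 lists, each was counted over its named probe sets. Symbols and lengths come from RefSeq's table of TAIR10.1, and no coordinates are given for want of an assembly in the array files. Alternatives were the block, Student's t-test, centring, a filter on dim probe sets, fits of 6 arrays, the linear scale, a trended and robust variance and each array left out. Leaving out the whole of replicate 3 was chosen after seeing the data.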

Additional observations from a re-analysis of the deposited data

How the results depend on the processing

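Counts of calls among the 6 genes repeat their choice on these arrays, and are given for how they change with the fit. With Fru against Xyl 0 genes passed the threshold of 0.002 without it, 5 with the replicate block and 5 with the random block. With Glc the counts were 1, 4 and 5, and with Suc 0, 1 and 1. Between sugars, the block gave 1 between Fru and Glc and 1 between Suc and Glc, both AT3G57540, and the random block 1 between Suc and Glc, against 0 without it. The 1 call without the block, AT3G25400 with Glc, was lost (0) by Student's t-test, in a fit of the 6 arrays alone and with dim probe sets left out. These settings called 25, 2 and 4 of all probe sets they covered with Glc. Student's t-test called AT3G25400 with Suc (1), as it did 41 of all probe sets. The cause of these changes was not tested. The dim filter removed *PRKR*, so its counts are over 5 genes.

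Leaving out 1 array at a time, or replicate 3, gave 0 to 1 genes with Glc and 0 to 1 with Suc, and 0 to 0 in the other comparisons. AT3G25400 with Glc was lost without any of the 3 Xyl arrays, the 3 Suc arrays, the Glc arrays of replicates 1 and 3, or the whole of replicate 3. With Suc it was gained without the Fru array of replicate 1. The calls between replicate numbers ranged from 3 to 5, with 3 without the Suc array of replicate 1, the Xyl array of replicate 3 or the whole of replicate 3. Of all probe sets, these settings called 11364, 11685 and 7555, against 12329 (54.2%) with all arrays, so that fewer calls were not particular to these genes. *MRS2.11* was also not called after centring of the arrays (adjusted p = 0.066 in limma).

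Each of the 36 single log2 differences was taken again under several alternatives. Of these repeats, 36 moved by more than the SD within replicates and 252 did not, and 1 difference can count more than once. A reversal was looked for only in a called difference. That was 1, AT3G25400 with Glc against Xyl, and it kept its sign. The sign changed on leaving out 1 array for AT3G57540 with Suc against Xyl (−0.07 to 0.44) and, between sugars, for AT2G22080 Fru against Glc (−0.46 to 0.02), *PRKR* Suc against Glc (−0.27 to 0.33), *URH1* Suc against Glc (−0.05 to 0.12), AT3G25400 Suc against Fru (−0.01 to 0.22) and AT3G57540 Suc against Fru (−0.44 to 0.19). Without replicate 3, AT3G57540 was 0.08 above Xyl with Suc in place of 0.16, and the sign changed for AT2G22080 Fru against Glc (0.05), *PRKR* Suc against Glc (0.10) and AT3G25400 Suc against Fru (−0.01). The number of arrays, 3 for each sugar, limits the precision throughout.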
